A study of Rattus norvegicus with 22 samples.

Results

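The dopamine receptor genes Drd1, Drd2, Drd3, Drd4 and Drd5 were followed in RNA from the nucleus accumbens (NAc) of 22 rats. They were taken by exact symbol from the count files, and all 5 were found among the 17310 genes listed. Experiment 1 compared 5 adult male Wistar rats that could drink 6 v/v % EtOH or water at all times for 8 weeks with 5 that had water alone. In experiment 2 all 12 adult male Wistar rats had access to the same EtOH solution for 4 weeks before and 2 weeks after a gavage period of 3 weeks, in which 6 rats received by tube 2.5 g/kg of EtOH (30 v/v %) 2 times a day and 6 received water. The controls of experiment 2 were therefore EtOH drinkers too, and that experiment concerns only the additional forced dose. Each rat gave 1 library, and the 2 experiments were never pooled in a group.

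Dopamine receptors are G protein-coupled receptors that fall into a D1-like class (Drd1, Drd5), which couples to stimulatory G proteins and raises cAMP, and a D2-like class (Drd2, Drd3, Drd4), which couples to inhibitory G proteins and lowers it. In the NAc, Drd1 marks projection neurons that also make dynorphin and substance P, and Drd2 marks projection neurons that make enkephalin. Drd3 is concentrated in the ventral striatum, and dopamine released there by axons from the midbrain is central to reward and to the reinforcing action of EtOH.

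Drd1 and Drd2 were the 2 receptors with enough reads to pass the filter on low counts. The sequences around their transcription starts are shown as background. Any relation of these sequences to the counts was not tested. They were taken from RefSeq (assembly GRCr8, whereas the deposited counts rest on an earlier build), which held a window for 5 of the 5 receptors, each covering 250 bases before to 50 bases after a start. The Drd1 window is chr17:10546354-10546653 (plus strand), and the transcription start it was built on lies 1116 bases inside the annotated span of the gene. The Drd2 window is chr8:58605153-58605452 (plus strand). Capitals mark GC boxes, searched as GGGCGG on both strands.
Drd1: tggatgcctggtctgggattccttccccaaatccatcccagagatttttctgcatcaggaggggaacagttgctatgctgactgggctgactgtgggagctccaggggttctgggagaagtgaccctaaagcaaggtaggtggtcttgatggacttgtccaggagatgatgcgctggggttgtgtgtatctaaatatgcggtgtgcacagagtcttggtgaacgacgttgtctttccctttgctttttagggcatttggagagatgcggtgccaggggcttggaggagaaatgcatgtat
Drd2: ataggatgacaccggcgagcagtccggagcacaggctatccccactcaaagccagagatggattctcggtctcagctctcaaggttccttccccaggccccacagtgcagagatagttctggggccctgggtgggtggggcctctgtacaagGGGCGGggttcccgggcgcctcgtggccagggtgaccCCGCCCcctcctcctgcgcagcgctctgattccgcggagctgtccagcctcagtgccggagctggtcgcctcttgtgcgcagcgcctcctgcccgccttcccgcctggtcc
The Drd1 window had a GC content of 51.7% with 5 CG dinucleotides and no GC box, and the Drd2 window had 67.3%, 19 and 2. Over 33469 windows of the same length the median GC content was 51.7% and 33.1% held a GC box. Among the other receptors, the Drd5 window resembled that of Drd2 in composition (67.0% GC, 2 GC boxes), Drd4 had 50.3% GC with 2 overlapping GC boxes, and Drd3 had 39.3% GC with none. TATAAA, which 14.2% of all windows held on either strand, and the cAMP response element TGACGTCA, which 1.83% held, were absent from these letters of all 5 windows.

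The reads assigned to genes numbered 2962291 to 5247386 per rat in experiment 1 and 6713617 to 8765472 in experiment 2. The libraries of experiment 1 resembled one another more closely: the median Pearson r of a library with the others of its experiment was 0.971 to 0.983, against 0.859 to 0.968 in experiment 2, where EtOH gavage replicate 1 was the lowest. Drd1, Drd2 and 9 of 10 markers of striatal projection neurons passed the filter on low counts in both experiments, the exception being Arpp19. Cortical, oligodendrocyte and astrocyte markers were present as well, so the dissected tissue was mixed, and in such bulk samples fewer cells of a type and less RNA per cell cannot be told apart.

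The receptors were recovered to very different extents. Drd1 had 757 to 1815 reads per rat in experiment 1 and 3363 to 5840 in experiment 2, and Drd2 had 465 to 919 and 1019 to 2411. Drd3 had 18 to 65 reads in experiment 1 and 4 to 76 in experiment 2, and Drd5 had 4 to 20 and 0 to 24. Both were below the median base mean by which genes were selected for testing, so only Drd1 and Drd2 entered the fit of 8655 genes. Read numbers of different genes are not compared as levels, because no transcript lengths were used.

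Drd4 was listed at 0 reads in every library of both experiments. A count of 0 allows up to 3 reads, which corresponds to 0.572 to 1.01 CPM (reads scaled to a common library size) in experiment 1 and 0.342 to 0.447 CPM in experiment 2. However, 2853 of the listed genes had no read in any library, among them Npy, the neuropeptide Y gene of a class of striatal interneurons, and Arpp19, a phosphoprotein gene used across the brain, had 0 to 2. The 0 for Drd4 was therefore given as listed and was not read as absence of the transcript.

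**Figure D1:**
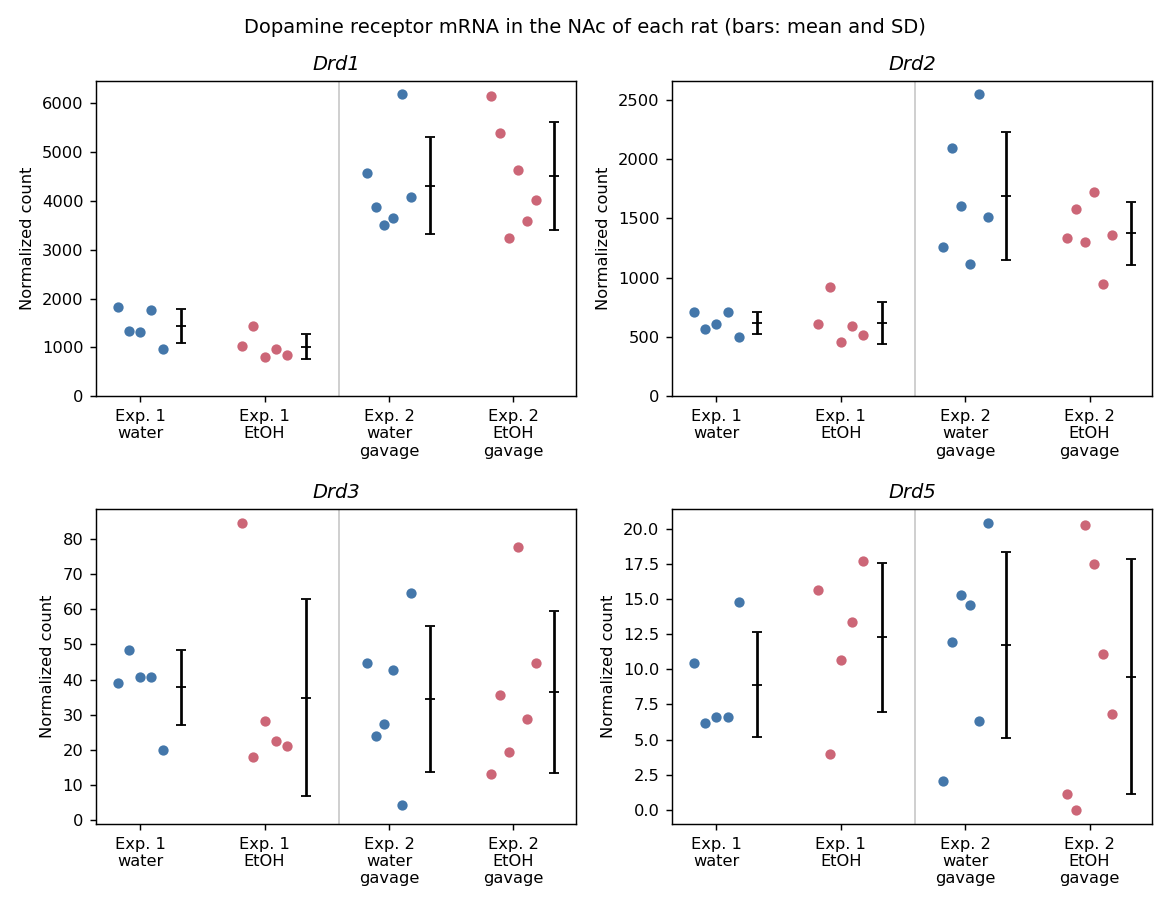
Normalized read counts (linear axes that differ between panels) of Drd1, Drd2, Drd3 and Drd5, with 1 point per rat and black bars for the group mean and SD, for water and EtOH in experiment 1 and for water gavage and EtOH gavage in experiment 2, each experiment scaled on its own. The compared groups overlap for each of these receptors, and 3 of the 5 EtOH rats lie below the lowest water rat for Drd1 in experiment 1.

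In experiment 1, Drd1 was lower on average in the EtOH drinkers than in the water drinkers, Drd2 was the same on average, and neither passed the threshold of an FDR under 0.05. The normalized counts of Drd1, scaled to the mean library of the experiment, were 1817, 1334, 1324, 1760 and 965.3 in the water rats and 1031, 1438, 802, 965.1 and 837 in the EtOH rats. Of the 5 EtOH rats, 3 were below the lowest water rat, 1 of them by a margin of less than 1 normalized count, and the other 2 were within the water range. The means were 1440 ± 351 (SD, n = 5) and 1015 ± 254 (SD, n = 5), a log2 fold change of -0.50 (SE 0.17, 95% CI -0.86 to -0.14). The quasi-likelihood test of edgeR gave an unadjusted p of 0.0104 and, adjusted by Benjamini and Hochberg over all tested genes, an FDR of 0.830, and Drd1 ranked 108 of 8655 genes by p. Over all genes 0 passed (0.0%, lowest FDR 0.536), while 483 (5.58%) had an unadjusted p under 0.05, with 2.58% of all genes lower and 3.0% higher in EtOH, and DESeq2 also called 0. An exact two-sided permutation test of the mean log2 CPM over the 252 splits of the 10 rats gave p = 0.0714 for Drd1, where the smallest possible value was 0.00794. Taken alone, Drd1 thus did not differ by more than the variation among rats in that test, and its groups overlapped, as did those of all but 0.832% of the tested genes.

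Drd2 showed no such shift in experiment 1. Its normalized counts were 708, 568, 609, 712 and 498 in the water rats and 606, 919, 456, 592 and 514 in the EtOH rats. The groups overlapped almost fully, with 1 EtOH rat above and 1 below the whole water range. The means were 619 ± 92.2 (SD, n = 5) and 618 ± 179 (SD, n = 5), and the log2 fold change was 0.00 (SE 0.16, 95% CI -0.33 to 0.34, edgeR FDR 0.999; exact permutation test, two-sided, p = 0.905). The interval leaves room for a change of either sign of up to about that size.

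Because both receptors were counted in the same library, their ratio in each rat does not depend on how the library was scaled. The Drd1 to Drd2 ratio of read counts was 2.57, 2.35, 2.18, 2.47 and 1.94 in the water rats of experiment 1 and 1.70, 1.56, 1.76, 1.63 and 1.63 in the EtOH rats. Every EtOH rat was below every water rat. The mean log2 ratio was 1.19 ± 0.16 (SD, n = 5) in water and 0.73 ± 0.06 (SD, n = 5) in EtOH, a difference of -0.47, or 0.724-fold (exact permutation test, two-sided, p = 0.00794, the smallest the design allows; 0.0238 after Benjamini-Hochberg adjustment over the 6 within-rat comparisons made here). This and the other within-rat comparisons were chosen with earlier results of these data known. Their p-values therefore describe these data and are not an independent test. The counting error of a single log2 ratio was 0.0349 to 0.0850 over all libraries, smaller than the difference. For background, 62 of the 8654 ratios of Drd1 to another tested gene (0.716%) had groups without overlap in this experiment, all of them lower in EtOH. The absolute size of the ratio is not a ratio of transcript numbers, since the lengths of the transcripts were not taken into account.

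In experiment 2 neither Drd1 nor Drd2 differed between the gavage groups by more than the variation among rats. Drd1 normalized counts had a lowest, median and highest value of 3505, 3976 and 6182 after water gavage and 3247, 4329 and 6143 after EtOH gavage, so the ranges nearly coincided. The means were 4312 ± 990 (SD, n = 6) and 4502 ± 1108 (SD, n = 6), with a log2 fold change of 0.06 (SE 0.18, 95% CI -0.33 to 0.45, edgeR FDR 0.870; exact permutation test, two-sided, p = 0.775). For Drd2 the lowest, median and highest normalized counts were 1117, 1557 and 2552 after water gavage and 944, 1347 and 1719 after EtOH gavage. The Drd2 means were 1688 ± 540 (SD, n = 6) and 1373 ± 265 (SD, n = 6), and its log2 fold change was -0.30 (SE 0.20, 95% CI -0.74 to 0.14, edgeR FDR 0.675; exact permutation test, two-sided, p = 0.264). No gene passed in this experiment (0 of 8655 by edgeR and 0 by DESeq2), and 115 genes (1.33%) had an unadjusted p under 0.05, with 0.624% of all genes lower and 0.705% higher in EtOH. Groups that did not overlap were found for 0.0116% of the tested genes, and neither receptor was among them.

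The Drd1 to Drd2 ratio of counts had a lowest, median and highest value of 1.86, 2.56 and 3.64 after water gavage and 2.49, 3.19 and 4.60 after EtOH gavage. The groups overlapped, as they did for each of the 8654 ratios of Drd1 to another gene (0.0% without overlap), and the EtOH rats were on average on the higher side. The mean log2 ratio was 1.38 ± 0.36 (SD, n = 6) and 1.70 ± 0.33 (SD, n = 6), a difference of 0.32 (exact permutation test, two-sided, p = 0.141, adjusted 0.211). With each rat left out in turn the difference was 0.22 to 0.41 (exact permutation tests, p = 0.277 to 0.0584), the lowest without EtOH gavage replicate 1, the library least like the others, and the highest without water gavage replicate 1.

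**Figure D2:**
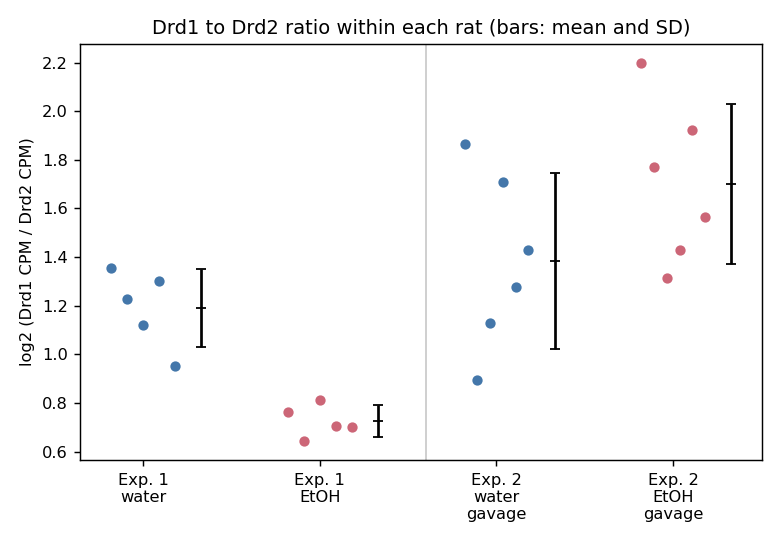
Log2 ratio of Drd1 to Drd2 (log2 CPM, prior count 2) in each rat, with 1 point per rat and black bars for the group mean and SD. The 5 EtOH rats of experiment 1 lie between 0.64 and 0.81, all below the 5 water rats at 0.95 to 1.36, and the gavage groups of experiment 2 overlap.

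The difference in the ratio was also compared between the experiments, by a permutation test that was not planned beforehand. The difference of -0.47 in experiment 1 minus that of 0.32 in experiment 2 was -0.78 (exact permutation of the labels within each experiment, 232848 combinations, two-sided p = 0.00242, 1 of 5 quantities compared and unadjusted). The same comparison gave -0.55 for Drd1 alone (exact permutation, p = 0.0869), 0.23 for Drd2 alone (p = 0.442, exact permutation), and exact permutation p = 0.521 for Drd3 and 0.261 for Drd5. The planned check was an interaction term in 1 edgeR fit over the 8176 genes tested in both experiments. It gave FDR 0.813 for Drd1 and for Drd2, with 0 genes called and 154 (1.88%) at an unadjusted p under 0.05. The experiments also differed in the treatment of the controls, in gavage and, per the paper, in voluntary EtOH intake, sequencer and read length. Read depth and whether the libraries kept the strand differed too. None of these can be told apart from the treatment.

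The receptors were next set against 10 markers of striatal projection neurons in the same rat, as log2 CPM of the receptor minus the mean log2 CPM of the markers. The size of this value depends on the choice of markers, which included the nearly uncounted Arpp19, and only its difference between groups is read. For Drd1 it was 0.68 ± 0.13 (SD, n = 5) in water and 0.35 ± 0.06 (SD, n = 5) in EtOH rats of experiment 1, without overlap of the groups. The difference was -0.32 (exact permutation test, two-sided, p = 0.00794, adjusted 0.0238). The share of all genes without overlap on this measure was not determined. The same Drd1 counts also enter the ratio to Drd2 above. For Drd2 it was -0.51 ± 0.05 (SD, n = 5) and -0.37 ± 0.10 (SD, n = 5), a difference of 0.14 in the other direction with overlapping groups (exact permutation test, two-sided, p = 0.0238, adjusted 0.0476). In experiment 2 the differences were 0.19 for Drd1 (exact permutation test, p = 0.182) and -0.13 for Drd2 (exact permutation test, p = 0.223). The mean log2 CPM of the markers themselves was 7.83 in water and 7.66 in EtOH rats of experiment 1, and that of Drd2 differed by -0.03. The marker mean enters the values of both receptors, and its own difference between groups was not tested. With only the markers above the filter, an alternative chosen after seeing the data, the differences in experiment 1 were -0.32 for Drd1 and 0.15 for Drd2 (exact permutation tests, p = 0.00794 and 0.0238).

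Drd1 and Drd2 varied together from rat to rat. Over the 10 rats of experiment 1 their log2 CPM gave Pearson's r = 0.771 and Spearman's rho = 0.830 (permutation tests, p = 0.00706 and 0.00454; r adjusted over 6 relations, 0.0212), and r was 0.768 without the 2 rats farthest from the median of Drd1. With group means subtracted r was 0.939 (permutation test, p = 1e-04, adjusted 0.0006) and 0.953 without those 2 rats. In experiment 2 the relation was looser, with r = 0.458 and rho = 0.413 over 12 rats (permutation tests, p = 0.133 and 0.184). After subtraction of group means r was 0.527 and rho was 0.531 (permutation tests, p = 0.0807 and 0.0814). Without that subtraction, r was 0.322 without the 2 farthest rats and 0.188 without water gavage replicate 5. It was 0.590 within the water gavage and 0.494 within the EtOH gavage group (permutation tests, p = 0.219 and 0.337). The groups of experiment 1 held too few rats for a coefficient of their own. The CV among rats of a group was 23.0% to 25.04% for Drd1 and 14.9% to 32.0% for Drd2, against 1.50% to 4.12% from counting alone.

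**Figure D3:**
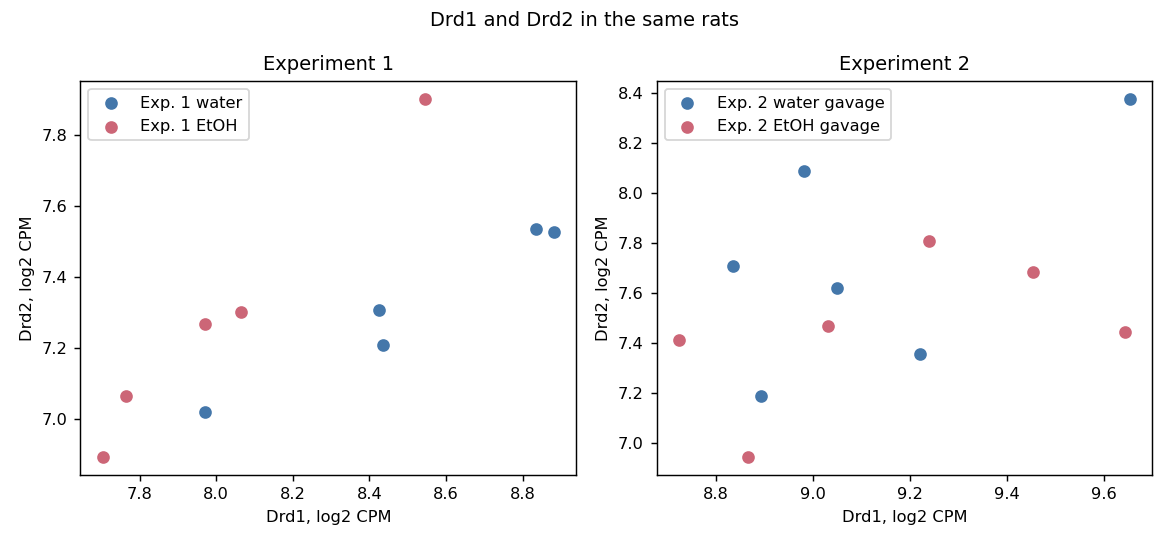
Log2 CPM of Drd2 against log2 CPM of Drd1, 1 point per rat, with experiment 1 and experiment 2 in separate panels and groups by colour. In experiment 1 both groups follow sloping bands (r = 0.939 with group means subtracted), and at a like Drd1 value the EtOH rats have more Drd2; in experiment 2 the groups are intermingled.

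Among 8175 tested genes, those whose group-centred log2 CPM followed Drd1 most closely in both experiments included Lrrk2, a kinase gene (r = 0.962 over 10 rats and 0.953 over 12), and Gnal, which encodes the G protein that couples Drd1 to adenylyl cyclase in the striatum (0.941 and 0.961). For Drd2 they were Ppp1r1b, which encodes the phosphoprotein DARPP-32 (0.983 and 0.911), Adora2a, the adenosine receptor of Drd2-expressing neurons (0.902 and 0.896), and Rgs9, a striatal regulator of G protein signalling (0.888 and 0.911). Each point is 1 library, so the values of a pair of genes share its depth and its piece of tissue, and the coefficients are a description only.

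Drd3, the other D2-like receptor with reads, varied widely among rats. In experiment 1 its normalized counts were 39.1, 48.3, 40.9, 40.7 and 19.97 in the water rats and 84.5, 18.01, 28.3, 22.6 and 21.0 in the EtOH rats. A single EtOH rat was the highest of all 10 while the other 4 were below 4 of the 5 water rats. In the same edgeR fit on the 14024 genes with at least 1 read, of which 820 (5.85%) had an unadjusted p under 0.05, the log2 fold change was -0.15 (SE 0.36, 95% CI -0.89 to 0.60, FDR 0.972; exact permutation test, two-sided, p = 0.532). Without that rat it was -0.73 with an FDR of 0.702. In experiment 2, with a median of 35.1 normalized counts (4.23 to 64.6) after water gavage and 32.2 (13.3 to 77.6) after EtOH gavage, the log2 fold change was 0.09 (SE 0.51, edgeR FDR 0.947; exact permutation test, p = 0.775). Its CV among rats was 28.0% to 80.3%, of which counting alone would give 16.2% to 17.9%.

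Drd5, the second D1-like receptor, was close to the limit of detection. Its normalized counts in experiment 1 were 10.4, 6.16, 6.57, 6.57 and 14.8 in the water rats and 15.6, 4.002, 10.6, 13.3 and 17.7 in the EtOH rats, with full overlap of the ranges except for 2 EtOH rats above and 1 below. The log2 fold change was 0.41 (SE 0.40, 95% CI -0.43 to 1.24, edgeR FDR 0.878; exact permutation test, two-sided, p = 0.381). In experiment 2 a read was found in 6 of 6 water gavage and 5 of 6 EtOH gavage rats, and the log2 fold change was -0.28 (SE 0.71, 95% CI -1.79 to 1.22, edgeR FDR 0.872; exact permutation test, p = 0.435). Of the 14121 genes in that fit, 286 (2.03%) had an unadjusted p under 0.05. The interval of experiment 2 runs from 0.289-fold to 2.34-fold, so neither the sign nor the size of a difference is settled by these rats at this depth.

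Genes around the receptors were then described by list, and 0 genes of any list reached an FDR under 0.05 in either experiment. Of the genes that make, store, take up or degrade dopamine, 5 of 7 were tested. In experiment 1, 1 of these had an unadjusted p under 0.05, as 5.58% of all tested genes did: Maob, which encodes a dopamine-degrading monoamine oxidase, at 669 ± 43.9 (SD, n = 5) normalized counts in water and 746 ± 35.7 in EtOH (log2 fold change 0.16, SE 0.06, edgeR FDR 0.866). Slc18a2, the vesicular monoamine transporter, gave 0.44 (SE 0.22, edgeR FDR 0.866) in experiment 1 and 0.39 (SE 0.24, edgeR FDR 0.675) in experiment 2. Maoa, the other monoamine oxidase, gave 0.04 (SE 0.08) and 0.20 (SE 0.17), and Ddc, which forms dopamine from its precursor, gave -0.38 (SE 0.28) in experiment 2. Th, the rate-limiting enzyme of dopamine synthesis, and Slc6a3, the dopamine transporter, are transcribed in midbrain neurons and had at most 13 and 3 reads in any library. The median log2 fold change of the list was 0.08 in experiment 1 and 0.15 in experiment 2, against 0.00 over all genes in both.

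Downstream of the receptors, 21 of 21 genes of the G protein and cAMP cascade were tested. In experiment 1, 1 was lower at an unadjusted p under 0.05 and 0 were higher, a share near the 5.58% of all tested genes, and the median log2 fold change was -0.08. The gene was Prkar2b, a regulatory subunit of protein kinase A that is abundant in striatal neurons (-0.30, SE 0.14, edgeR FDR 0.866), and Rgs9 was next (-0.35, SE 0.17). The most abundant members, Gng7 and Ppp1r1b, gave -0.16 (SE 0.11) and -0.24 (SE 0.17) in experiment 1 and -0.34 (SE 0.21) and -0.25 (SE 0.20) in experiment 2. In experiment 2 no member had an unadjusted p under 0.05 and the median was -0.25, with Ppp1ca, a catalytic subunit of protein phosphatase 1, at -0.34 (SE 0.17) and Pde1b, a phosphodiesterase, at -0.38 (SE 0.20).

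Of 19 genes for receptor partners, kinases and arrestins, 16 were in the files and 15 were tested. Gipc1, a scaffold protein that binds dopamine receptors, was the 1 member with an unadjusted p under 0.05 in experiment 1 (-0.21, SE 0.08, edgeR FDR 0.866), again a share near the 5.58% of all tested genes. Ppp1r9b, which encodes spinophilin, a protein that binds Drd2, had groups without overlap there, as 0.832% of all tested genes did: its normalized counts were 4760 to 5195 in water and 5251 to 5476 in EtOH rats (log2 fold change 0.09, SE 0.05, edgeR FDR 0.866). In experiment 2 none had an unadjusted p under 0.05, the median of the list was -0.29, and Ppp1r9b gave -0.47 (SE 0.26) with overlapping groups. Kcnj9, a potassium channel subunit, gave -0.58 (SE 0.42) there. The abundant Gprasp1, which encodes a receptor sorting protein, gave 0.03 (SE 0.07) in experiment 1 and 0.19 (SE 0.19) in experiment 2, and Epb41l1, which encodes a cytoskeletal protein, gave 0.03 (SE 0.10) in experiment 2.

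Markers of the neurons that carry the receptors gave a mixed picture. Of the D1 pathway neuron markers, 6 of 8 were tested, and 2 were lower and 1 higher in EtOH at an unadjusted p under 0.05 in experiment 1, where 2.58% of all tested genes were lower and 3.0% higher. The median log2 fold change was -0.37. Chrm4, the muscarinic receptor of these neurons, had 425 ± 90.0 (SD, n = 5) normalized counts in water and 290 ± 34.8 in EtOH (-0.54, SE 0.13, edgeR FDR 0.536). Slc35d3, a gene that affects the traffic of the D1 receptor to the membrane, gave -0.50 (SE 0.20, edgeR FDR 0.866), whereas Sfxn1, named after its value was seen, gave 0.21 (SE 0.09, edgeR FDR 0.866). The neuropeptide genes Tac1 and Pdyn, the most abundant of the list, gave -0.27 (SE 0.17) and -0.14 (SE 0.14). In experiment 2 no D1 pathway marker had an unadjusted p under 0.05. The median was -0.01, and 3 of the 6 tested had a log2 fold change below 0 and 3 above. Among them, Chrm4 was at -0.32 (SE 0.17), Sfxn1 at 0.18 (SE 0.13), Pdyn at 0.12 (SE 0.16) and Tac1 at 0.09 (SE 0.14).

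Of the D2 pathway neuron markers, 5 of 7 were tested, and none had an unadjusted p under 0.05 in experiment 1, with a median of -0.05. Penk, the enkephalin precursor, gave -0.25 (SE 0.21), Adora2a gave -0.18 (SE 0.19) and Sh3rf2 gave 0.30 (SE 0.20). In experiment 2 the median was -0.44 and all 5 had a log2 fold change below 0. There Adora2a was the 1 member with an unadjusted p under 0.05, as 1.33% of all tested genes had, at 1232 ± 423 (SD, n = 6) normalized counts after water gavage and 850 ± 233 after EtOH gavage (-0.54, SE 0.24, edgeR FDR 0.675), and Penk gave -0.44 (SE 0.22). When the mean log2 CPM of 5 D1 markers minus that of 5 D2 markers was formed in each rat, it was 0.80 ± 0.06 (SD, n = 5) in water and 0.60 ± 0.29 in EtOH rats of experiment 1, and 0.23 ± 0.44 (SD, n = 6) and 0.52 ± 0.12 in experiment 2. The groups overlapped in both, unlike those of the Drd1 to Drd2 ratio in experiment 1.

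**Figure D4:**
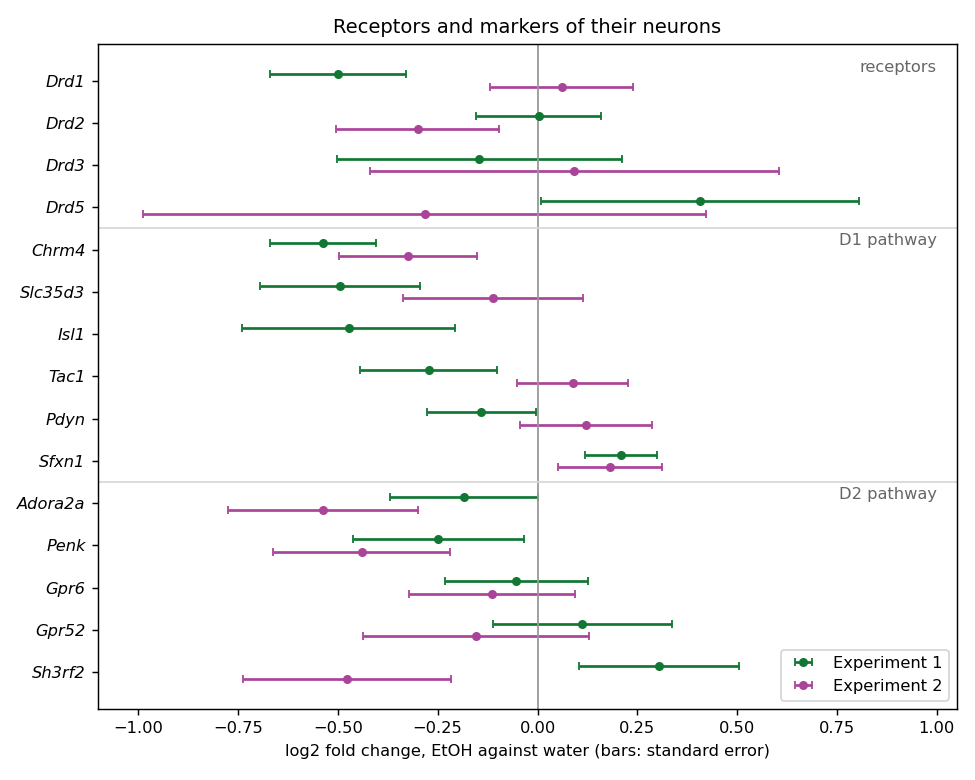
Log2 fold change (EtOH against water, with bars for the standard error) of the 4 receptors with reads and of the D1 and D2 pathway neuron markers tested in experiment 1, for experiment 1 and experiment 2 (Isl1 only where it was tested). Ebf1, a D1 pathway marker tested only in experiment 2, is not drawn. Drd1 and Chrm4 lie below 0 in experiment 1, Drd2 lies at 0.00 in experiment 1, and Adora2a and Penk lie at -0.54 and -0.44 in experiment 2.

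Of the projection neuron markers common to both pathways, 9 of 10 were tested, and none had an unadjusted p under 0.05 in either experiment. Their summed level was 4269 to 6281 CPM in water and 3901 to 6980 CPM in EtOH rats of experiment 1, and 5282 to 10510 CPM and 5507 to 7545 CPM in experiment 2. The median log2 fold changes were -0.14 and -0.25. The most abundant, Arpp21, gave -0.03 (SE 0.13) in experiment 1 and 0.14 (SE 0.20) in experiment 2. Rgs9, with the lowest p of the list in experiment 1, is given above. Pde10a and Adcy5 gave -0.41 (SE 0.22) and -0.39 (SE 0.23) in experiment 2.

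Markers of other cells moved beside these values in experiment 1. Of 45 tested genes in 9 lists, 8 were higher and 3 lower in EtOH at an unadjusted p under 0.05, where 3.0% of all tested genes were higher and 2.58% lower, and 0 passed an FDR under 0.05 in edgeR. The genes, all but Lhx2 and Flt1 named after their values were seen, were Dcx, Cd24 and Dlx1 of 5 tested neuroblast markers, Trpc4 and Lhx2 of 5 septal and subcortical markers, and Cldn5, Flt1 and Col1a1 of 5 vascular markers, all higher, and Chat, Pvalb and Nos1 of 5 interneuron markers, all lower. The summed level was 872 to 1144 CPM in water and 1017 to 1268 CPM in EtOH rats for the neuroblast list, 134 to 199 and 140 to 252 for the septal list, 258 to 307 and 283 to 360 for the vascular list, and 298 to 484 and 318 to 364 for the interneuron list, in which Npy was at 0. None of the 7 tested cortical markers (357 to 880 and 474 to 862 CPM, with Slc17a7 the most abundant), and none of the 6 oligodendrocyte, 6 astrocyte and 6 microglia markers, had an unadjusted p under 0.05, and the 4 choroid plexus markers were below the filter. The most abundant genes of the lists without such a member, and of the neuroblast and interneuron lists, gave log2 fold changes of 0.25 (SE 0.41) for Slc17a7, 0.11 (SE 0.09) for Stmn2, -0.09 (SE 0.08) for Sst, -0.11 (SE 0.16) for Mbp, 0.10 (SE 0.05) for Slc1a3 and 0.04 (SE 0.06) for Csf1r. In experiment 2 none of the 45 tested genes had an unadjusted p under 0.05, and the most abundant included Lamp5 at -0.04 (SE 0.12), Slc17a6 at 0.24 (SE 0.65), Stmn2 at 0.17 (SE 0.19), Slc5a7 at 0.29 (SE 0.34), Slc1a3 at 0.09 (SE 0.13), Csf1r at -0.27 (SE 0.21) and Flt1 at -0.30 (SE 0.20). The part of these cells in the Drd1 values and in the Drd1 to Drd2 ratio was not tested.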

How the data were processed

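PolyA+ RNA from the NAc was sequenced as paired reads, without strand in experiment 1 and with strand in experiment 2. Per the submitters' processing notes, reads were aligned to Rnor_6.0 with TopHat2 2.0.13 and assigned with HTSeq (0.5.3p3 and 0.6.0 are named). The authors deposited raw read counts per gene symbol, unnormalized. Options and annotation release are not given in the sources used here. The 5 summary lines were left out of library sizes. Reads outside annotated genes were on average 49.5% (of these plus assigned reads) in both groups of experiment 1, and 50.1% and 52.9% in water and EtOH gavage.

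Separate fits per experiment used edgeR 4.0.16 under R 4.3.3 (TMM, glmQLFit, glmQLFTest, Benjamini-Hochberg) over the 8655 genes whose base mean exceeded the median over the listed genes (43.6 and 66.4), and Drd3 and Drd5 over every gene with a read. The SE was derived from the fold change and F statistic. Log2 CPM used a prior count of 2. For normalized counts, each library was scaled to its experiment's mean effective size. Without strand, reads of overlapping antisense genes cannot be told apart. Groups and replicate numbers came from the labels. Same-group libraries differed beyond sampling noise (chi-square per degree of freedom at least 2.74), and the p-values of group comparisons set a difference against the variation between rats.

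The receptors, lists and within-rat ratios were chosen with earlier results of these data known. From each list the 2 tested genes with the lowest p and the 2 most abundant were named, with every gene of the dopamine handling list allowed, and of other cell types the most abundant gene and any at 0. For likeness, the 3 genes with the highest smaller r of both experiments were chosen. Some genes that these rules select are not reported here. Alternatives were DESeq2 1.42.0 with and without shrinkage, its size factors, other filters, all groups in 1 fit, a replicate block, the newer quasi-likelihood mode, other prior counts and each rat left out.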

Additional observations from a re-analysis of the deposited data

Results flagged for a closer look

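Drd3 in EtOH replicate 1 of experiment 1 had a normalized count of 84.5, whereas the other 4 EtOH rats had 18.01 to 28.3, so the gap took 0.845 of the range of the group. It was the 1 such value among 20 groups examined, where chance gives about 1.

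The EtOH minus water difference in the log2 ratio of Drd1 to Drd2 differed between the experiments by -0.78 (exact permutation of labels within experiments, p = 0.00242). Leaving out each rat in turn gave -0.88 to -0.68, with exact permutation p of 0.000653 to 0.00605. This comparison was not planned beforehand, and it was 1 of 5 and unadjusted. The planned edgeR interaction gave FDR 0.813 for Drd1 and for Drd2. The ratio was lower in EtOH rats of experiment 1 and on average higher after EtOH gavage, where the controls also drank EtOH. The cause was not tested.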

How the results depend on the processing

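The number of genes called stayed at 0 in both experiments under every alternative and with each rat left out. The log2 fold change of Drd1 in experiment 1 kept its sign, at -0.51 to -0.22 over 8 alternatives (smallest in size with shrunken DESeq2 estimates) and -0.66 to -0.40 with each rat left out (edgeR FDR 0.15 to 0.993). That of Drd2 in experiment 1, 0.00, turned to -0.030 with a replicate block, -0.0035 with all groups in 1 fit, -0.0012 without a filter, -0.0067 with DESeq2 and -0.0040 with its shrinkage, and ranged from -0.19 to 0.10 with each rat left out. The ranges with each rat left out were -0.73 to 0.018 for Drd3 and 0.24 to 0.71 for Drd5 in experiment 1, and -0.043 to 0.19 for Drd1, -0.39 to -0.14 for Drd2, -0.26 to 0.37 for Drd3 and -0.65 to -0.03 for Drd5 in experiment 2. The Drd1 to Drd2 ratio difference in experiment 1 ranged from -0.53 to -0.43.

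Same-numbered rats did not deviate together in experiment 1 (r of -0.13 to 0.14 over 5 pairs, 1 of them over 0.1). In experiment 2 the r of such pairs was mixed (-0.76 to 0.84 over 6 pairs, mean 0.149, 4 of them over 0.1). Only 2 of 10 and 1 of 12 rats correlated best with their own number, so numbers were not taken as pairs. In experiment 2, 414 genes had an unadjusted p under 0.05 in edgeR with the replicate block, against 115 without it. In experiment 1, with the replicate block, a sign-flip test gave exact p = 0.0625, the smallest that 5 pairs allow, for the Drd1 to Drd2 ratio (-0.47) and for Drd1 relative to projection neuron markers (-0.32), and exact p = 0.125 for Drd2 relative to them (0.14). Drd3 and Drd5 had few reads, and Drd4 had no reads. The CV among rats of Drd3 and Drd5 was above that from counting alone in every group, an excess that was not tested. The filter of 10 counts in every library left no value for Drd5.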
